A study of Mus musculus with 12 samples.

Results

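The 36 genes described here carry out or control the making, uptake, storage and export of cholesterol and the making of fatty acids. They were the rows of the deposited count table whose Ensembl identifiers map to 36 chosen mouse symbols, of 45706 genes in the table, and were grouped by step: 7 genes of the mevalonate pathway, 11 of sterol synthesis, 5 regulators, 5 of uptake and storage, 4 of efflux and 4 of fatty acid synthesis. The libraries hold polyadenylated RNA of mouse conventional T cells (con) and regulatory T cells (Trg), each from wild-type (WT) and Coro1-/- (knockout, KO) genotypes, with 3 libraries in each of the 4 groups. Coro1a encodes coronin 1, an actin-binding protein of leukocytes, and the series is on T cell signalling in allograft rejection. The labels give no strain, age, sort gate or culture for the cells, and the controls are wild type with no other stated allele or agent.

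Cells build cholesterol from acetyl-CoA: the mevalonate pathway makes the isoprenoid units, and the sterol enzymes, from squalene synthase onward, turn them into cholesterol. When sterols are scarce, SCAP escorts the SREBP factors from the endoplasmic reticulum to be cut and to switch on these genes, and INSIG proteins hold SCAP back when sterols are plentiful. When oxysterols accumulate, the LXR receptors switch on the exporters ABCA1 and ABCG1, and T cells change both arms when they are activated and divide.

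Libraries held 19686870 to 33404302 gene counts, and all 36 genes were among the 15922 tested. Values are CPM, read counts relative to a library size scaled with edgeR's TMM factors. Coro1a itself was at 2124, 2361 and 2399 CPM in WT con and 44.1, 47.3 and 44.1 CPM in KO con libraries, and at 2712, 2503 and 2312 CPM in WT Trg and 20.9, 28.8 and 30.4 CPM in KO Trg libraries. T cell markers and, in Trg libraries, Foxp3 were present, but markers of other cells moved with the groups. Over 8 B cell markers the summed level was 5.03 to 7.06 CPM in WT con, 35.4 to 57.6 in KO con, 3598 to 5047 in WT Trg and 3979 to 4808 in KO Trg libraries. Over 13 macrophage and monocyte markers it was 336 to 553, 1825 to 3927, 1138 to 1578 and 1209.6 to 2746 CPM, and over 6 T cell markers 3063 to 3352, 1949 to 2316, 1683 to 2323 and 1083 to 1663 CPM. None of these 3 lists had a marker at 0 in all libraries of a group. WT Trg replicate 3 and KO Trg replicate 1 held at least 100 CPM of Xist together with Y-linked reads, so calls on Trg libraries that change without this pair are named beside the results. Whether the 3 replicates of a group came from separate animals is not stated, so the p-values refer to the spread between libraries.

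Promoters of most synthesis genes held the motif CCAAT, which played no part in choosing the genes, and the stretches printed here show it. RefSeq (GRCm38.p6) gave a window, from 250 bases before to 50 after the start, for 28 of the 36 genes. CCAAT on either strand, the core bound by NF-Y, which acts together with SREBP at sterol genes, was in a window of 14 of the 15 mevalonate and sterol genes with one (93.3%), against 42.1% of the 11207 tested genes with a window. It was also in 4 of the 5 regulators and in all 3 uptake and storage genes with a window, among them Soat1, which rose in KO con. Of the fatty acid genes with a window 1 of 2 held it, and of the 3 efflux genes none. Over all 28 genes with a window it was in 22 (78.6%), so it was not particular to the synthesis genes. GGGCGG, the Sp1 core, was in 14 of these 15 genes against 65.4% of tested genes, and CACGTG, an E-box, in 3 against 11.3%. The sterol regulatory element TCACNCCAC was found in Hmgcs1, which encodes the cytosolic HMG-CoA synthase, and in no other gene with a window, against 1.39% of tested genes. No match of one motif overlapped a match of another in these windows. Each line gives the 180 bases that end just before a start site, 5′ to 3′ on the gene's strand, with CCAAT (or ATTGG on the other strand) and TCACCCCAC in capitals. Hmgcs1 and Mvk were chosen as mevalonate genes that fell in KO con libraries, Ebp as a sterol gene that did not pass the test there, and Abca1 as an exporter that rose.
Hmgcs1, chr13:119690171-119690350, plus strand: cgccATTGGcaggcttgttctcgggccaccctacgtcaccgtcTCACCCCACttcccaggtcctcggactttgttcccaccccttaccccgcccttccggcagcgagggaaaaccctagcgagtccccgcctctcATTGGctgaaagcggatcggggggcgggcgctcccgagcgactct
Mvk, chr5:114444089-114444268, plus strand: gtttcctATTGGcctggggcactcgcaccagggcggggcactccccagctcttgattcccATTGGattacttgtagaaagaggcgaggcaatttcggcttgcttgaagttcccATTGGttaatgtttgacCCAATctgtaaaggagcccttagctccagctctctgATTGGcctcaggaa
Ebp, chrX:8193513-8193692, minus strand: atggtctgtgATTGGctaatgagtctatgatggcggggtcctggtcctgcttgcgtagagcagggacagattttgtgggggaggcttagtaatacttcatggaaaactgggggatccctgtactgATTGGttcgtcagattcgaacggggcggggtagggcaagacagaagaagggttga
Abca1, chr4:53159896-53160075, minus strand: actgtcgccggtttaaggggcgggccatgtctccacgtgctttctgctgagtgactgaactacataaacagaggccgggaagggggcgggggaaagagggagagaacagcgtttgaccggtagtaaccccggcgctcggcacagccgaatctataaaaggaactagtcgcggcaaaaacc
The Mvk stretch holds 5 CCAAT matches, the Hmgcs1 and Ebp stretches 2 each, and the Abca1 stretch none. Ebp thus carries the motif without having been called. A match is only a stretch of letters, and no binding was measured. Only exact matches inside the windows were counted, so the lack of a match does not show that a gene lacks a site.

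Per length of exon, in WT con libraries, the synthesis genes were expressed at low to moderate levels beside their regulators. Values in this paragraph are levels in CPM per kilobase of exon (GENCODE M21). Ebp, a sterol isomerase, was at 15.8 ± 0.574 (SD, n = 3) and Hmgcs1 at 14.3 ± 1.51 (SD, n = 3), the highest of the 18 synthesis genes. Fdps, which makes farnesyl diphosphate, was lowest at 0.946 ± 0.0952 (SD, n = 3). Sqle, squalene epoxidase and a rate-limiting sterol enzyme, was at 4.54 ± 0.687 (SD, n = 3). The SREBP-2 gene Srebf2 was at 49.7 ± 2.81 (SD, n = 3), above the SREBP-1 gene Srebf1 at 24.4 ± 0.634 (SD, n = 3). Npc2, which passes cholesterol out of lysosomes, stood highest of all 36 at 92.3 ± 3.57 (SD, n = 3). Scd1, a stearoyl-CoA desaturase, was lowest of all at 0.112 ± 0.00623 (SD, n = 3), and its close relative Scd2 was at 16.8 ± 2.45 (SD, n = 3). Reads that map to several places are not counted for any gene, so genes with copies read low. Of the distinct 50-base words in their transcripts, 39.1% of Acat2, 26.5% of Fdft1, 26.2% of Fdps, 25.3% of Idi1, 30.4% of Acaca and 11.6% of Hmgcs1 also occur in transcripts of another annotated gene, a copy or an overlapping one. Levels of these 6 are uncertain, and 20 of the 36 genes share under 1% of such words.

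**Figure D1:**
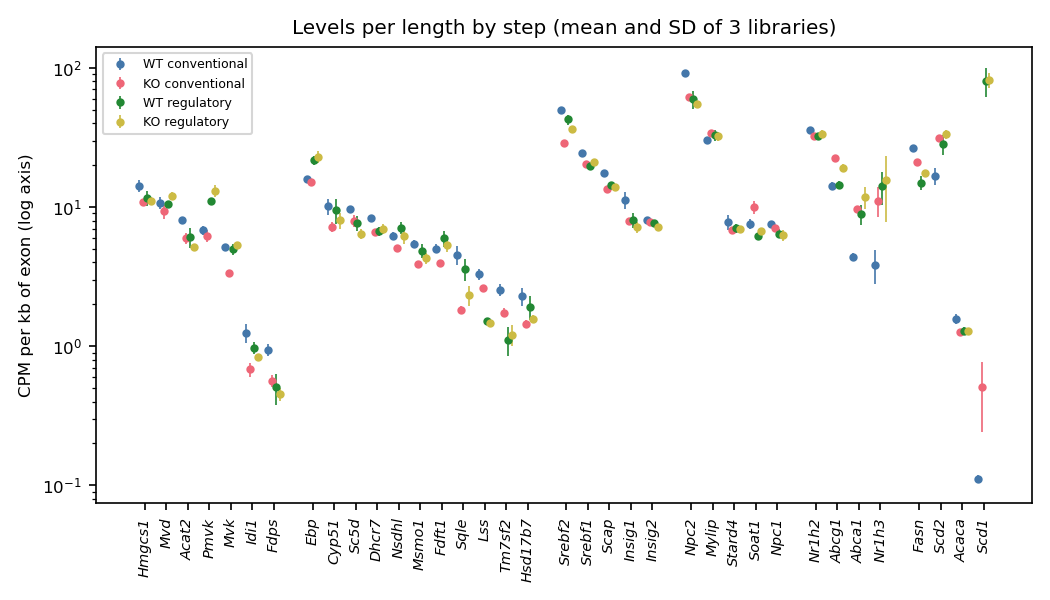
Level of each of the 36 genes per kilobase of exon, on a log axis in CPM per kilobase of exon, by step, with points at the mean of 3 libraries and bars at ± 1 SD for the 4 groups. Srebf2 and Npc2 sit above the synthesis genes, and Scd1 lies at the foot of the con groups and among the upper genes of the Trg groups.

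In conventional T cells, with TMM scaling, knockout libraries had less RNA of the enzymes that make cholesterol, of SREBP-2 and of SCAP, and more of the genes that export cholesterol. Of the 36 genes, 22 fell and 6 rose (edgeR's quasi-likelihood test, Benjamini-Hochberg (BH) adjusted over all genes tested, threshold 0.05), where 48.7% of all genes tested passed, 25.4% lower and 23.3% higher. The median log2 fold change was -0.32 over the 36 genes and -0.05 over all genes tested. These directions are relative to the TMM scaling: with libraries scaled to 6 T cell genes, 1 of the 36 was lower and 9 higher. The share of all genes called under this scaling is not given, here or below, so such counts are not read as results about the 36. Under it the median was 0.53 over all genes and 0.26 over the 36 genes, so the gap between them was -0.27, against -0.28 with TMM. In bulk RNA, fewer cells that express a gene and less RNA in each cell cannot be told apart. The summed T cell markers of KO con were 66.6% of their WT con level, and the part of that in the results was not tested.

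**Figure D2:**
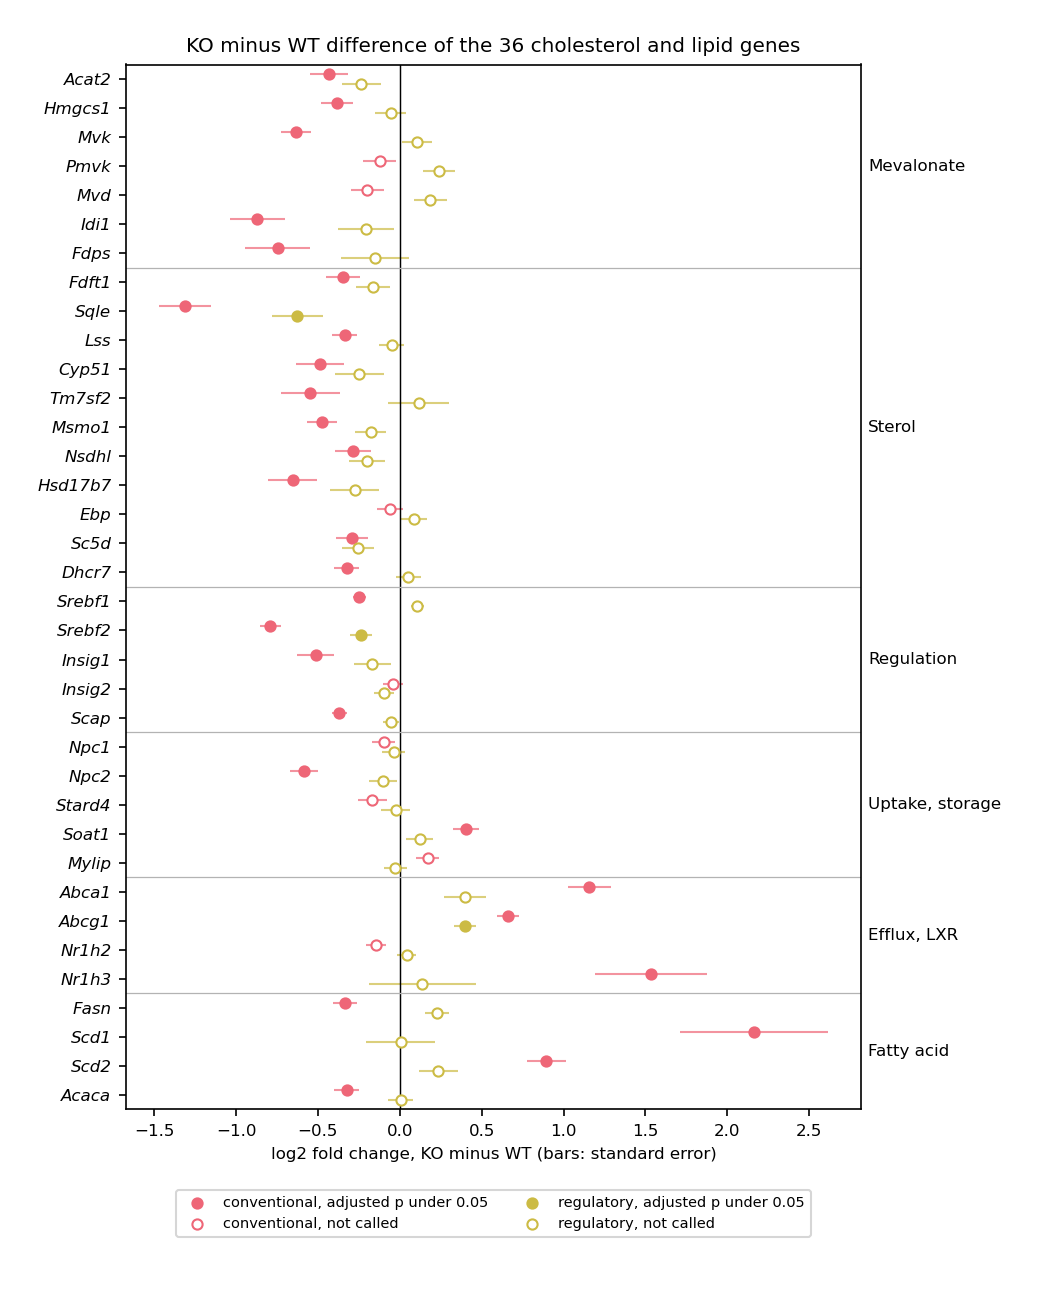
Log2 fold change of KO against WT (points, bars ± 1 SE) of each of the 36 genes by step, in conventional and in regulatory T cells, with TMM scaling. In conventional T cells all 18 mevalonate and sterol genes lie below 0 and 3 of the 4 efflux genes above it, and with libraries scaled to T cell genes 5 of the 18 lie below 0.

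Among the 18 synthesis genes, 15 fell in KO con with TMM scaling: 5 of the 7 mevalonate and 10 of the 11 sterol genes. All 18 had a negative log2 fold change, with a median of -0.41, where 8646 of all 15922 genes tested had a negative one. With T cell scaling 5 were negative and 17 lay below the median of all genes. Their summed level was 473 ± 29.1 (SD, n = 3) CPM in WT con and 359.98 ± 11.9 (SD, n = 3) CPM in KO con, or 76.1% of WT. For each of the 15, every KO con library lay below every WT con library, which was so for 35.5% of all genes tested. Over the 36 genes, 24 were lower and 7 higher without overlap between the groups, where 63.6% of all genes did not overlap and 28.1% were higher. When genes with a mean under 5 CPM were left out, 8 of the remaining 16 synthesis genes fell, and with a tested minimum of 1.5-fold only 1 did. The share of all genes called in these settings is not given.

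Sqle (chr15:59315077-59331192, GRCm38) had the lowest fold change of the 36. Its level was 28.4, 26.2 and 20.98 CPM in WT con and 10.6, 9.44 and 10.5 CPM in KO con libraries. The 3 KO values lie close together and far under the WT values. The log2 fold change was -1.31 ± 0.16 (SE, BH-adjusted p = 6.93e-05), and KO con held 40.3% of the WT mean. The call held under all 23 other settings (normalizations, filters, tools and libraries left out, with the 1.5-fold minimum counted apart). With T cell scaling Sqle was called lower still, and Ebp was the 1 synthesis gene called higher.

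Of the mevalonate genes, Mvk, which encodes mevalonate kinase (chr5:114444269-114460591), was at 13.4, 14.3 and 13.999 CPM in WT con and 9.26, 8.90 and 8.63 CPM in KO con. The groups do not overlap, and the log2 fold change was -0.64 ± 0.09 (SE, BH-adjusted p = 2.19e-04). Idi1, the isopentenyl diphosphate isomerase, was at 4.71, 4.79 and 3.62 CPM in WT con and 2.58, 2.52 and 2.07 CPM in KO con. WT con replicate 3 was the lowest of its group and still above each KO library, and the log2 fold change was -0.87 ± 0.17 (SE, BH-adjusted p = 0.00147). Fdps fell with a log2 fold change of -0.75 ± 0.20 (SE, BH-adjusted p = 0.00946) from 3.98 ± 0.401 (SD, n = 3) CPM, the thinnest counts of the synthesis genes. Acat2, the thiolase that joins 2 acetyl-CoA units at the start, fell (log2 fold change -0.43 ± 0.12 SE, BH-adjusted p = 0.00968) and so did Hmgcs1 (log2 fold change -0.38 ± 0.10 SE, BH-adjusted p = 0.00664). Pmvk, the phosphomevalonate kinase, and Mvd, the diphosphomevalonate decarboxylase, act between Mvk and Idi1. Neither passed the test, with log2 fold changes of -0.12 (unadjusted 95% interval, as throughout, -0.35 to 0.11, adjusted p = 0.338) and -0.20 (-0.43 to 0.03, adjusted p = 0.123).

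Of the other sterol genes, Hsd17b7, the sterol ketoreductase, fell (log2 fold change -0.66 ± 0.15 SE, BH-adjusted p = 0.00389) and so did Tm7sf2, a sterol reductase (log2 fold change -0.55 ± 0.18 SE, BH-adjusted p = 0.0253). Cyp51, the lanosterol demethylase, was at 46.99, 49.03 and 37.8 CPM in WT con and 34.7, 31.5 and 29.2 CPM in KO con. Its log2 fold change was -0.49 ± 0.15 (SE, BH-adjusted p = 0.0178), and the call was lost when WT con replicate 1 or 2 or KO con replicate 3 was left out. Msmo1, the methylsterol oxidase that acts after it, fell (log2 fold change -0.48 ± 0.09 SE, BH-adjusted p = 0.00160). Fdft1, which makes squalene, Lss, which closes the sterol rings, and Dhcr7, the last reductase, fell with log2 fold changes of -0.35, -0.34 and -0.32 (adjusted p = 0.0170, 0.00337 and 0.00402). Sc5d, a sterol desaturase, and Nsdhl, a sterol dehydrogenase, both had a log2 fold change of -0.29 (adjusted p = 0.0268 and 0.0480), and the Nsdhl call held in only 10 of 23 other settings. Sc5d held in 17, Tm7sf2 in 16, and Fdft1 in 19, being lost without WT con replicate 2 or KO con replicate 3. Nsdhl was lost without any 1 of 7 libraries, Sc5d without WT con replicate 1 or 3 or KO con replicate 3, and Tm7sf2 without WT con replicate 1 or 2 or KO con replicate 1 or 3. Ebp did not pass the test, at 35.8, 35.7 and 38.1 CPM in WT con and 33.5, 34.4 and 37.1 CPM in KO con with overlapping groups.

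Of the 5 regulators, 4 fell in KO con on the TMM scale. Under T cell scaling none of the 4 was called lower, and 1 of the 5 was called higher. Srebf2 (chr15:82147181-82205379), whose product drives the synthesis genes, was at 358, 377 and 337 CPM in WT con and 215, 204 and 199.6 CPM in KO con. The gap between the groups is wider than the range within either, and the log2 fold change was -0.79 ± 0.07 (SE, BH-adjusted p = 6.77e-06). Scap, the escort of the SREBP precursors, fell (log2 fold change -0.37 ± 0.05 SE, BH-adjusted p = 1.21e-04), from 129, 129.7 and 132 CPM to 105, 100.3 and 96.5 CPM. Srebf1, whose product drives mainly fatty acid genes, fell (log2 fold change -0.25 ± 0.04 SE, BH-adjusted p = 4.41e-04). Insig1, the retention protein that is itself an SREBP target, fell (log2 fold change -0.52 ± 0.11 SE, BH-adjusted p = 0.00321), while its relative Insig2 did not pass the test at -0.04 (95% interval -0.19 to 0.10).

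Of the 5 uptake and storage genes, 1 fell and 1 rose on the TMM scale, while with T cell scaling 2 were called higher and 0 lower. Npc2, in the lysosome, was at 481, 506 and 519.6 CPM in WT con and 343, 319 and 343 CPM in KO con, with no overlap and a log2 fold change of -0.59 ± 0.08 (SE, BH-adjusted p = 2.27e-04). With T cell scaling its value was 0.0097. Soat1, which esterifies cholesterol for storage, was at 80.5, 69.5 and 71.6 CPM in WT con and 91.02, 92.5 and 109.8 CPM in KO con. Each KO library lay above each WT library, the log2 fold change was 0.40 ± 0.08 (SE, BH-adjusted p = 0.00173), and the call held in all 23 other settings. Npc1, the membrane partner of Npc2, Stard4, a sterol carrier, and Mylip, a ubiquitin ligase that removes lipoprotein receptors, did not pass, with log2 fold changes of -0.10, -0.17 and 0.17.

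Of the 4 efflux genes 3 rose in KO con, and these calls held under every scaling tried. Abca1 (chr4:53030787-53159895), which loads cholesterol onto apolipoproteins, was at 48.4, 44.9 and 42.7 CPM in WT con and 103, 95.3 and 105 CPM in KO con. All KO libraries were above all WT libraries, with a log2 fold change of 1.16 ± 0.13 (SE, BH-adjusted p = 4.67e-05). Abcg1, which passes cholesterol to lipoprotein particles, was at 99.8, 99.3 and 112 CPM in WT con and 163, 161 and 167 CPM in KO con, again without overlap, and rose by 0.66 ± 0.07 (SE, BH-adjusted p = 2.06e-05) on the log2 scale. Nr1h3, the LXR-alpha receptor, was at 6.73, 11.97 and 10.3 CPM in WT con and 30.1, 20.4 and 33.6 CPM in KO con. It varied more within the groups than the exporters did, and its log2 fold change was 1.53 ± 0.34 (SE, BH-adjusted p = 0.00353). Nr1h2, the LXR-beta receptor, did not pass the test, with a log2 fold change of -0.15 (adjusted p = 0.0597). Per length of exon in WT con, Nr1h2 stood at 35.97 ± 1.69 (SD, n = 3) and Nr1h3 at 3.84 ± 1.06 (SD, n = 3) CPM per kilobase.

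Macrophages express Nr1h3 and Abca1 strongly, and macrophage and monocyte markers were higher in KO con too, at 631% of their WT level as a sum of 13 genes. Neutrophil markers were at 3086% and NK cell markers at 599.9% of WT, dendritic cell markers at 1630.4% and mast cell and basophil markers at 1154%, each from low WT sums. The sum of 5 regulatory T cell markers was 128 to 183 CPM in WT con and 250.2 to 414 CPM in KO con libraries, or 239.5% of WT, against 1658 to 1923 CPM in WT Trg. Abca1, Nr1h3 and Scd2 were higher, and Srebf2, Srebf1, Scap and Insig1 lower, in WT Trg than in WT con as well, the directions seen in KO con on the TMM scale, in comparisons that share the WT con libraries. With T cell scaling those 4 regulators turned positive in WT Trg. On the TMM scale not all genes called in KO con shared a direction with WT Trg. Soat1, which rose in KO con, was lower in WT Trg. Fdft1, which fell in KO con, was higher in WT Trg, a call that held in 11 of 23 other settings. Abcg1 and several synthesis genes called in KO con did not pass in WT Trg. As a percentage of the macrophage and monocyte sum, Nr1h3 was 2.01% to 2.44% in WT con and 0.856% to 1.19% in KO con libraries. Abca1 was 8.11% to 14.4% in WT con and 2.67% to 5.22% in KO con. Both thus rose by a smaller factor than the marker sum did. The part of the markers in these results was not tested.

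The 4 fatty acid genes split evenly. Fasn, the fatty acid synthase, was at 304, 289.7 and 277 CPM in WT con and 232, 235 and 223 CPM in KO con, a log2 fold change of -0.33 ± 0.07 (SE, BH-adjusted p = 0.00306) with no overlap. Acaca, which makes its malonyl-CoA substrate, fell (log2 fold change -0.32 ± 0.08 SE, BH-adjusted p = 0.00497). With T cell scaling neither was called, at 0.25 for Fasn and 0.26 for Acaca. The desaturase Scd2 was at 107, 84.3 and 83.3 CPM in WT con and 163, 177 and 171 CPM in KO con, and rose by 0.89 ± 0.12 (SE, BH-adjusted p = 1.43e-04) on the log2 scale, a call that held in all 23 other settings. Scd1 was barely counted, at 0.572, 0.554 and 0.513 CPM in WT con and 2.19, 1.34 and 3.89 CPM in KO con. Its log2 fold change was 2.16 ± 0.45 (SE, BH-adjusted p = 0.00235), with limma-voom the exception among the settings that called it. B cell markers were at 705% of their WT con sum in KO con, and Scd1 was 8.10% to 10.2% of that sum in WT con and 3.80% to 6.76% in KO con libraries. The part of B cell RNA in the Scd1 difference was not tested.

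**Figure D3:**
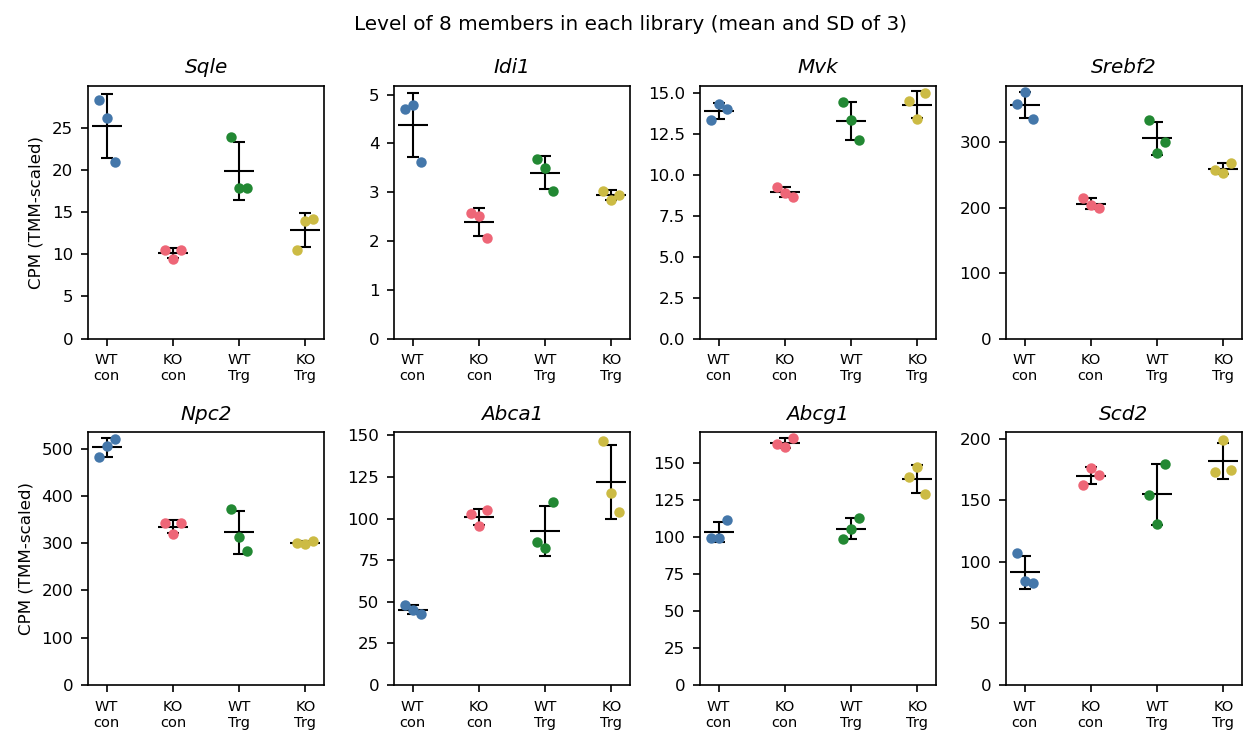
CPM of 8 of the 36 genes in each of the 12 libraries (points) with group means (lines), each panel with its own axis from 0. Sqle, Idi1, Mvk, Srebf2 and Npc2 sit lower and Abca1, Abcg1 and Scd2 higher in KO con than in WT con libraries, with no overlap between these groups on the TMM scale.

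Genes further along the pathways were counted in the same comparison, from lists chosen as the 36 were. These counts and values are on the TMM scale, and those under T cell scaling are not given. In this comparison T cell scaling moved the median of all genes from -0.05 to 0.53. In the isoprenoid branch, which uses farnesyl diphosphate for prenylation, ubiquinone and dolichol, 8 of 12 genes fell and none rose (background as above). They included both subunits of the Rab geranylgeranyl transferase, Rabggtb at -0.43 ± 0.06 (SE, BH-adjusted p = 2.08e-04) and Rabggta at -0.43 ± 0.06 (SE, BH-adjusted p = 2.72e-04), and the farnesyl transferase subunit Fntb at -0.49 ± 0.07 (SE, BH-adjusted p = 3.19e-04). Among 6 tested further sterol genes, 2 fell and 1 rose: Lbr, a sterol reductase of the nuclear envelope, at -0.33, Acat1, the mitochondrial thiolase, at -0.26, and Cyb5r3, an electron donor, at 0.30. Of 10 genes that process or degrade SREBP pathway proteins, 4 fell and 3 rose, with the ubiquitin ligase Rnf139 at -0.27 and Erlin1, a membrane scaffold protein, at 0.59. Of 19 tested sterol transport genes 7 rose and 7 fell. Osbpl3 rose by 2.86 ± 0.28 (SE, BH-adjusted p = 1.79e-05) and Osbpl5 by 0.64 ± 0.06 (SE, BH-adjusted p = 1.62e-05), while Osbpl9 fell (log2 fold change -0.40 ± 0.04 SE, BH-adjusted p = 2.04e-05), all 3 encoding oxysterol-binding proteins. Of 10 tested LXR and oxysterol genes 3 rose and 4 fell. Cyp27a1, a sterol hydroxylase, was at 1.35, 1.30 and 0.929 CPM in WT con and 12.5, 11.8 and 25.05 CPM in KO con and rose by 3.78 ± 0.33 (SE, BH-adjusted p = 9.23e-06), and Rxra, the LXR partner, rose by 1.11. Abca7, a relative of Abca1, was at -0.34. The lists of further fatty acid genes (8 of 22 rose, 5 fell) and of fatty acid oxidation (5 of 14 rose, 3 fell) were mixed. Dgat2, the last step of triglyceride synthesis, rose by 2.86 ± 0.30 (SE, BH-adjusted p = 2.95e-05), and the flavoprotein Etfb and the reductase Decr1, both of oxidation, by 0.66 and 0.82. Macrophage, neutrophil and B cell markers were higher in the same libraries, and their part in the rises was not tested.

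In regulatory T cells few of the 36 genes passed the test of KO against WT, near the share of all genes tested. The counts called and not overlapping are therefore not read as results about the 36. Sqle and Srebf2 fell and Abcg1 rose, where 7.83% of all genes tested passed, 3.82% lower and 4.01% higher, and 33 of the 36 did not pass. Groups did not overlap for 6 genes that were higher and 3 that were lower in KO Trg, where this held for 26.2% of all genes, 13.2% higher and 13% lower. The summed level of the 18 synthesis genes was 421 ± 36.5 (SD, n = 3) CPM in WT Trg and 397 ± 25.3 (SD, n = 3) CPM in KO Trg, or 94.3% of WT. The median log2 fold change was -0.03 over the 36 genes and 0.00 over all genes. With T cell scaling the median was 0.50 over the 36 genes and 0.53 over all genes, and 12 of the 36 were called higher and none lower. The share of all genes called under it is not given, so these calls are not read as a result about the 36. T cell markers in KO Trg were at 70.6% of their WT Trg sum. From low sums, neutrophil markers were at 266%, mast cell and basophil at 424%, platelet at 217% and dendritic cell at 163% of WT Trg. Plasma cell markers were at 52.3%, and regulatory T cell, erythroid and B cell markers at 98.2%, 101% and 104%. The part of these markers in the KO Trg results was not tested.

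Sqle was at 23.9, 17.8 and 17.9 CPM in WT Trg and 10.5, 13.9 and 14.2 CPM in KO Trg libraries. The groups do not overlap, KO Trg replicate 1 was the lowest and WT Trg replicate 1 the highest, and the log2 fold change was -0.63 ± 0.16 (SE, BH-adjusted p = 0.0345). The call held in 13 of 23 other settings. It was lost with the replicate number as a block, in a fit of only the groups compared and with T cell scaling. It was also lost when WT con replicate 2, WT Trg replicate 1 or 2, or KO Trg replicate 1 or 3 was left out, and when WT Trg replicate 3 and KO Trg replicate 1, the pair with Xist and Y-linked reads, were left out together. Srebf2 was at 334, 284 and 300.3 CPM in WT Trg and 258, 253 and 269 CPM in KO Trg, without overlap. Its log2 fold change of -0.24 ± 0.07 (SE, BH-adjusted p = 0.0494) lay at the threshold and was called in 5 of 23 other settings, and leaving out any library but WT Trg replicate 2 lost it. Abcg1 was at 98.7, 106 and 113 CPM in WT Trg and 141, 148 and 129.6 CPM in KO Trg. All KO Trg libraries lay above all WT Trg libraries, the log2 fold change was 0.40 ± 0.07 (SE, BH-adjusted p = 0.00664), and the call held when any 1 library was left out, and when the pair with at least 100 CPM of Xist and Y-linked reads was. It was lost when all 4 Trg libraries with at least traces of both were left out, which leaves 1 library in each Trg group.

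Abca1 was at 85.9, 82.3 and 109.99 CPM in WT Trg and 147, 116 and 104 CPM in KO Trg. WT Trg replicate 3 lay within the KO range, and the log2 fold change was 0.40 (95% interval 0.10 to 0.69, adjusted p = 0.0829). Without the pair with at least 100 CPM of Xist and Y-linked reads it was called higher (adjusted p = 0.0205). The highest Abca1 and Nr1h3 levels were in KO Trg replicate 1, which also had the highest macrophage and monocyte sum of the Trg libraries. Mvk stood at 0.11 (95% interval -0.10 to 0.31) and Hmgcs1 at -0.06 (-0.28 to 0.17). Scd1 stood at 0.01 (-0.48 to 0.49) and Fasn at 0.23 (0.06 to 0.40). In the other lists, again on the TMM scale, 1 of 12 isoprenoid genes rose and 2 fell (4.01% and 3.82% of all genes tested). Those that fell were Ggps1 at -0.32 (adjusted p = 0.0187) and Pdss1 at -0.48 (adjusted p = 0.0469), both of which make longer isoprenoid chains. Of 22 further fatty acid genes 2 rose, Dgat2 by 1.93 ± 0.24 (SE, BH-adjusted p = 0.00212) and the elongase Elovl7 by 1.25 ± 0.28 (SE, BH-adjusted p = 0.0218). No gene passed among the 14 of fatty acid oxidation.

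The knockout effect itself was compared between the cell types through the interaction term, the effect in Trg minus that in con. All 18 synthesis genes had a positive difference on the TMM scale, with a median of 0.34, which is to say a less negative effect in Trg, and 3 of them passed the test. Of all 15922 genes tested, 8191 had a positive difference. Over the 36 genes 8 differences were positive and 3 negative at the threshold, where 21.3% of all genes passed, 8.86% positive and 12.4% negative, and the median was 0.29 against 0.02 for all genes. Mvk differed by 0.74 ± 0.13 (SE, BH-adjusted p = 0.00262), Srebf2 by 0.55 ± 0.09 (SE, BH-adjusted p = 0.00224) and Fasn by 0.56 ± 0.10 (SE, BH-adjusted p = 0.00372). Mvk in KO Trg, at 14.5, 13.4 and 14.95 CPM, overlapped WT Trg, at 14.4, 13.3 and 12.1 CPM. Hmgcs1, which fell in con, did not pass the test of the difference, at 0.33 (95% interval 0.01 to 0.64, adjusted p = 0.109). Abca1 differed in the other direction by -0.76 ± 0.18 (SE, BH-adjusted p = 0.0136). Without the pair of Trg libraries with at least 100 CPM of Xist and Y-linked reads the Dhcr7 difference was lost (adjusted p = 0.0537), and those of Tm7sf2, positive, and Nr1h3, negative, were called. With T cell scaling 1 of the 36 differences was called, that of Scd1, and those of the others were lost. The group behind each was not the same: Fasn was lowest in WT Trg, and Mvk and Srebf2 in KO con.

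Regulatory and conventional T cells of the same genotype were compared next. These comparisons share libraries with the knockout comparisons, so their calls are not independent of them. In WT, 16 of the 36 genes were lower and 7 higher in Trg than in con, where 72.4% of all genes tested passed, 33.3% lower and 39.1% higher. The groups did not overlap for 16 genes that were lower and 8 that were higher, where this held for 75.3% of all genes, 35.4% lower and 39.9% higher. The median log2 difference was -0.23 against 0.07 for all genes. With T cell scaling it was 0.41 against 0.71 for all genes, and 1 of the 36 was lower and 16 higher, without the share of all genes called. The Trg libraries also held a B cell marker sum of 3598 to 5047 CPM and an erythroid sum of 5044 to 9214 CPM, against 5.03 to 7.06 and 6.03 to 24.95 CPM in WT con, and the part of that RNA in the differences was not tested. Read quality moved with cell type too, without overlap over both genotypes. Mitochondrial reads were 1.44% to 2.33% of gene counts in con and 5.16% to 8.15% in Trg libraries. Reads outside annotated genes were 13.3% to 15.7% in con and 4.98% to 6.87% in Trg, and multimapping reads 9.25% to 11.1% in con and 15.8% to 19.5% in Trg. Their part in the differences was not tested.

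Within sterol synthesis the enzymes did not move together between the cell types. Lss was at 38.01, 36.4 and 32.1 CPM in WT con and 17.005, 15.4 and 16.5 CPM in WT Trg, with no overlap and a log2 difference of -1.12 ± 0.08 (SE, BH-adjusted p = 2.07e-07). Tm7sf2 was lower in WT Trg (log2 fold change -1.19 ± 0.18 SE, BH-adjusted p = 1.20e-04) and so was Fdps (log2 fold change -0.91 ± 0.20 SE, BH-adjusted p = 0.00176). With T cell scaling the Lss call held, while those of Tm7sf2 and Fdps were lost. Pmvk, in contrast, was at 12.2, 11.998 and 10.7 CPM in WT con and 18.8, 18.8 and 19.2 CPM in WT Trg, higher by 0.71 ± 0.10 (SE, BH-adjusted p = 6.27e-05), and Ebp was higher by 0.46 ± 0.08 (SE, BH-adjusted p = 3.11e-04). Fdft1 was higher by 0.25 (adjusted p = 0.0470), a call that held in only 11 of 23 other settings. It was lost with limma-voom, no filter, the replicate block and the 4 Trg libraries with Xist and Y-linked reads left out, and without any 1 of the 6 con libraries, WT Trg replicate 1 or KO Trg replicate 2. Acat2, Hmgcs1, Sc5d and Dhcr7 were lower, with log2 differences of -0.40, -0.30, -0.34 and -0.32, and these 4 were positive and not called lower with T cell scaling. The Hmgcs1 call was also lost in a fit of only the groups compared and without WT con replicate 1 or 2 or WT Trg replicate 2. Mvk, Mvd, Idi1, Sqle, Cyp51, Msmo1, Nsdhl and Hsd17b7 did not pass. Sqle was the nearest of these, at -0.35 (adjusted p = 0.0617), and Nsdhl was called higher without the pair with at least 100 CPM of Xist and Y-linked reads (adjusted p = 0.0372).

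All 4 regulators that fell in KO con were also lower in WT Trg than in WT con: Insig1 (log2 fold change -0.48 ± 0.11 SE, BH-adjusted p = 0.00244), Srebf1 (log2 fold change -0.31 ± 0.04 SE, BH-adjusted p = 2.49e-05), Scap (log2 fold change -0.27 ± 0.05 SE, BH-adjusted p = 3.30e-04) and Srebf2 (log2 fold change -0.22 ± 0.07 SE, BH-adjusted p = 0.00914), each of which turned positive with T cell scaling. Both comparisons use the WT con libraries, so this is no independent repeat. Npc2 (log2 fold change -0.64 ± 0.08 SE, BH-adjusted p = 3.40e-05), Soat1 (log2 fold change -0.29 ± 0.08 SE, BH-adjusted p = 0.00641) and Npc1 (log2 fold change -0.23 ± 0.07 SE, BH-adjusted p = 0.0126) were lower in WT Trg. With T cell scaling each of these calls was lost, and Soat1 and Npc1 turned positive. The Npc1 call was also lost without WT Trg replicate 2. Of the efflux genes, Nr1h3 was at 32.5, 27.99 and 46.2 CPM in WT Trg and higher than in WT con by 1.88 ± 0.35 (SE, BH-adjusted p = 4.40e-04), and Abca1 was higher by 1.03 ± 0.13 (SE, BH-adjusted p = 2.48e-05). Abcg1 did not differ beyond the spread on the TMM scale, at 0.03 (95% interval -0.12 to 0.18). With T cell scaling all 4 efflux genes were called higher, where the median of all genes was 0.71 and the share of all genes called is not given. As a percentage of the macrophage and monocyte sum, Nr1h3 was 2.46% to 2.93% in WT Trg, beside 2.01% to 2.44% in WT con.

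**Figure D4:**
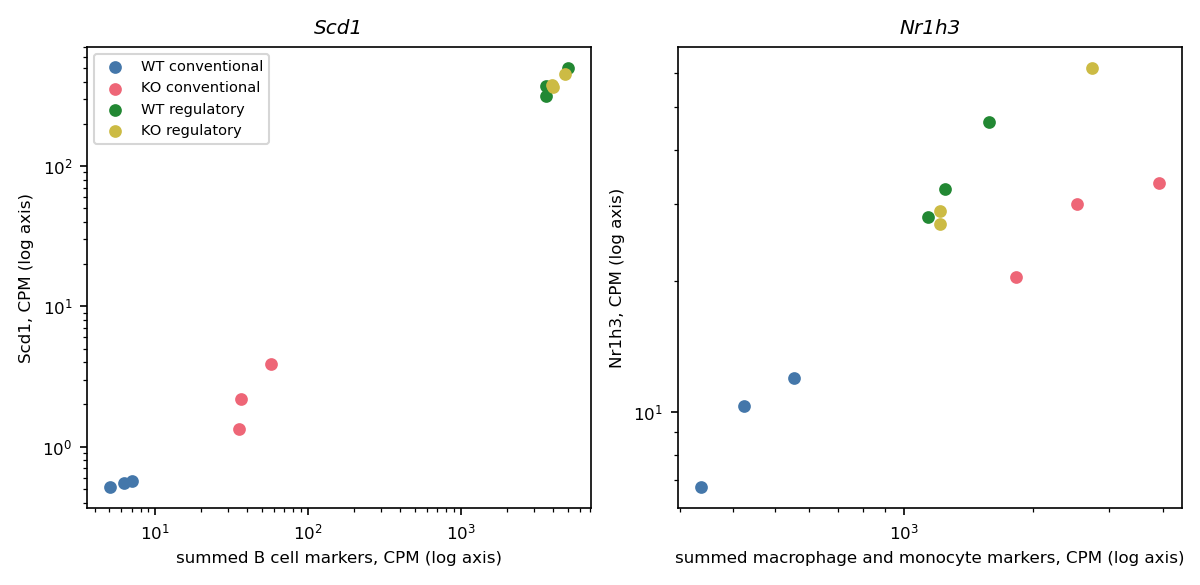
Left, Scd1 against the summed B cell markers, and right, Nr1h3 against the summed macrophage and monocyte markers, both axes in CPM on log scales, 1 point for each of the 12 libraries. Scd1 and the B cell sum are both low in con and both high in Trg libraries, with KO con between them and nearer to WT con. Nr1h3 and the macrophage and monocyte sum are both lowest in WT con.

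Scd1 had the largest difference between the cell types of the 36 genes in WT and in KO. It was at 0.572, 0.554 and 0.513 CPM in WT con and 374, 317 and 499.97 CPM in WT Trg libraries, a log2 difference of 9.50 ± 0.35 (SE, BH-adjusted p = 3.72e-09). As a share of the summed B cell markers, which are also far higher in Trg libraries, Scd1 was 8.81% to 10.3% in WT Trg and 9.09% to 9.46% in KO Trg libraries, beside 8.10% to 10.2% in WT con. As a share of the erythroid sum, which is also far higher in Trg libraries, it was 2.05% to 9.19% in WT con, 2.88% to 6.43% in KO con, 3.44% to 9.91% in WT Trg and 5.68% to 6.57% in KO Trg libraries, with overlapping ranges. The part of B cell or erythroid RNA in the difference was not tested. Scd2 was higher in WT Trg by 0.76 ± 0.12 (SE, BH-adjusted p = 1.38e-04). Fasn was at 180.01, 143 and 169 CPM in WT Trg and lower (log2 fold change -0.83 ± 0.07 SE, BH-adjusted p = 1.46e-06), and Acaca was lower (log2 fold change -0.30 ± 0.08 SE, BH-adjusted p = 0.00454). With T cell scaling the Fasn call was lost and Acaca turned positive.

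**Figure D5:**
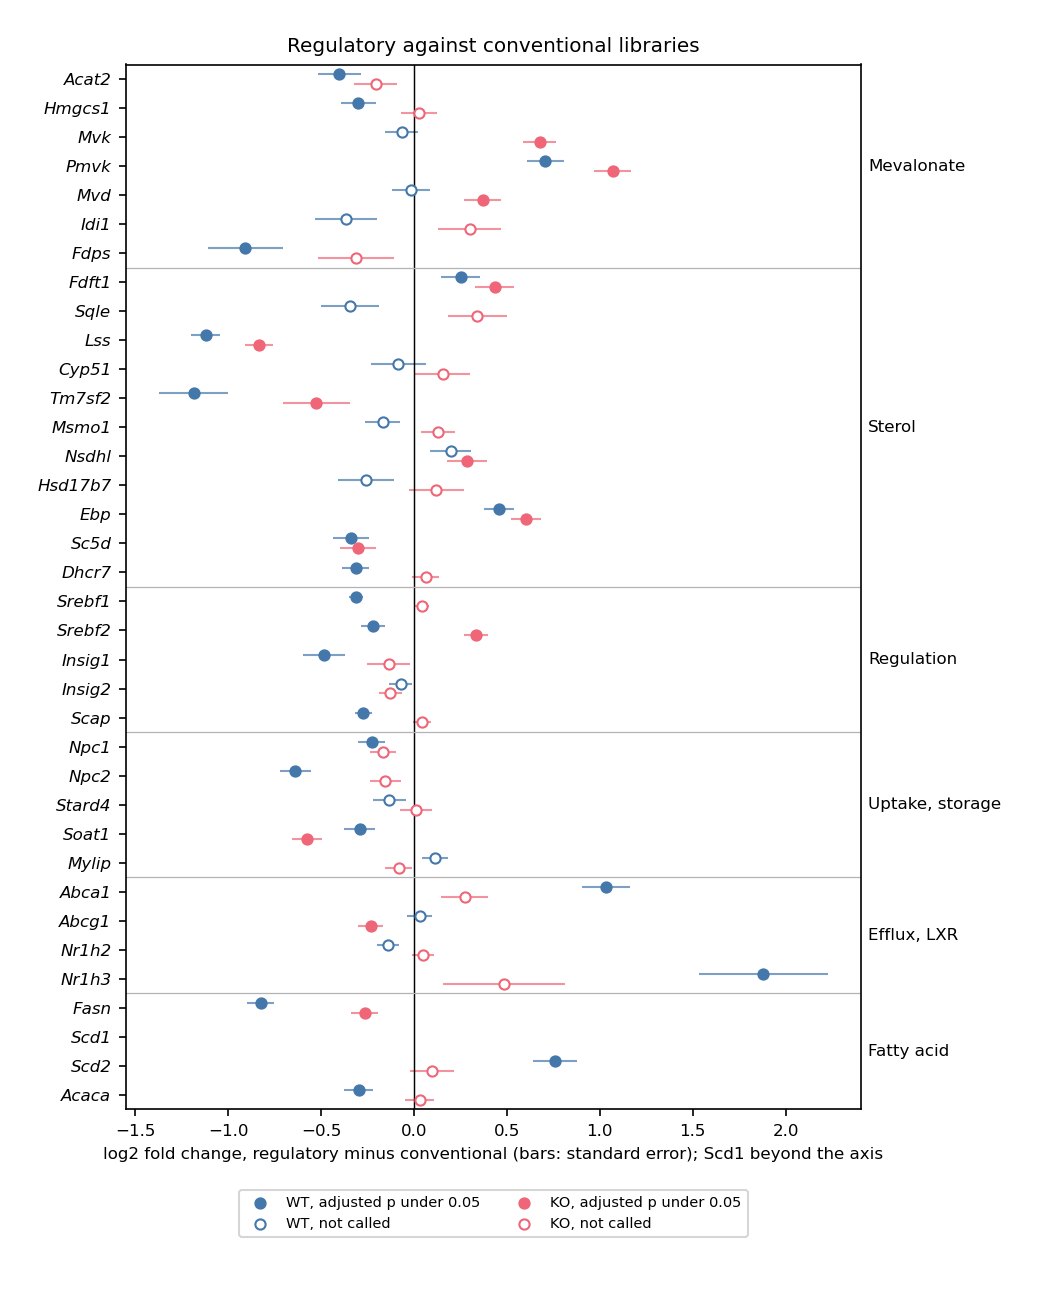
Log2 difference of regulatory against conventional T cells (points, bars ± 1 SE) of the 36 genes other than Scd1 by step, in WT and in KO, with TMM scaling. Scd1 is beyond the axis and not drawn, at 9.50 in WT and 7.34 in KO. Lss and Tm7sf2 lie to the left of 0 in both genotypes, except that Tm7sf2 in KO is at 0.090 with libraries scaled to T cell genes.

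In the knockout, 8 of the 36 genes were higher and 6 lower in Trg, where 67.8% of all genes tested passed, 36.1% higher and 31.7% lower. The groups did not overlap for 9 genes that were higher and 10 that were lower, where this held for 72.7% of all genes, 38.6% higher and 34.1% lower. The median log2 difference was 0.05 against 0.03 for all genes. With T cell scaling it was 0.64 against 0.62 for all genes, and 24 of the 36 were higher and none lower. The share of all genes called under it is not given, so these calls are not read as a result about the 36. Among the 18 synthesis genes 6 were higher and 3 lower. Mvk was higher in KO Trg by 0.68 ± 0.09 (SE, BH-adjusted p = 4.80e-05), Pmvk by 1.07 ± 0.10 (SE, BH-adjusted p = 3.28e-06), Ebp by 0.60 ± 0.08 (SE, BH-adjusted p = 4.44e-05), Fdft1 by 0.43 ± 0.10 (SE, BH-adjusted p = 0.00301), Mvd by 0.37 ± 0.10 (SE, BH-adjusted p = 0.00633) and Nsdhl by 0.29 ± 0.11 (SE, BH-adjusted p = 0.0363). The Nsdhl call held in 15 of 23 other settings, being lost with the replicate block, no filter, only the groups compared, and without WT con replicate 2, KO con replicate 2 or 3 or KO Trg replicate 2 or 3. Without the pair of Trg libraries with at least 100 CPM of Xist and Y-linked reads 5 sterol genes were higher in place of 3, with Sqle (adjusted p = 0.0168) and Msmo1 (adjusted p = 0.0271) added, and Npc1 was lower. Lss (log2 fold change -0.83 ± 0.08 SE, BH-adjusted p = 2.70e-06), Tm7sf2 (log2 fold change -0.53 ± 0.18 SE, BH-adjusted p = 0.0225) and Sc5d (log2 fold change -0.30 ± 0.10 SE, BH-adjusted p = 0.0159) were lower. With T cell scaling the Lss call was lost, and Tm7sf2 and Sc5d turned positive. Tm7sf2 was lost without KO con replicate 2 or KO Trg replicate 2, and Sc5d without KO con replicate 1 or KO Trg replicate 1. Srebf2, which was lower in Trg than in con in WT, was higher in KO by 0.33 ± 0.07 (SE, BH-adjusted p = 8.20e-04). Soat1 (log2 fold change -0.58 ± 0.08 SE, BH-adjusted p = 6.36e-05), Fasn (log2 fold change -0.27 ± 0.07 SE, BH-adjusted p = 0.00686) and Abcg1 (log2 fold change -0.23 ± 0.07 SE, BH-adjusted p = 0.00769) were lower and turned positive with T cell scaling. Scd1 was higher by 7.34 ± 0.30 (SE, BH-adjusted p = 9.56e-09).

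The lists of further pathway genes are read against all genes tested, of which 39.1% were higher and 33.3% lower in WT Trg than in WT con, and 36.1% and 31.7% in KO. Those of fatty acid oxidation counted 11 of 14 higher and 2 lower in WT, and 9 higher and 1 lower in KO. The largest of the named differences in WT were those of Etfb at 1.34 ± 0.06 (SE, BH-adjusted p = 1.08e-08) and Decr1 at 1.31 ± 0.11 (SE, BH-adjusted p = 7.44e-07), and Acadl, an acyl-CoA dehydrogenase, was at 0.66 ± 0.06 (SE, BH-adjusted p = 1.28e-06). Among sterol transport genes there were 7 higher and 11 lower of 19 in WT and 1 higher and 12 lower in KO. Gramd1a, which carries sterol from the plasma membrane to the endoplasmic reticulum, was lower in both genotypes, at -2.19 ± 0.09 (SE, BH-adjusted p = 6.60e-09) in WT and -1.87 ± 0.09 (SE, BH-adjusted p = 2.66e-08) in KO. Of 10 LXR and oxysterol genes 3 were higher and 7 lower in WT, among them Abca7 at -1.12 ± 0.05 (SE, BH-adjusted p = 1.26e-08) and the LXR target Arl4c at -2.17 ± 0.15 (SE, BH-adjusted p = 2.03e-07). In KO none was higher and 4 were lower, with Abca7 at -0.85 and Arl4c at -2.02. Of 12 isoprenoid genes 2 were higher and 7 lower in WT, with Fntb at -1.09 ± 0.08 (SE, BH-adjusted p = 2.24e-07). Of 22 further fatty acid genes 9 were higher and 8 lower in WT, near the share of all genes, with Elovl7 at -4.43 ± 0.26 (SE, BH-adjusted p = 6.85e-08) and Acss2, the acetyl-CoA synthetase of the cytosol, at -1.50 ± 0.12 (SE, BH-adjusted p = 7.10e-07). These counts are also on the TMM scale.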

How the data were processed

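The authors deposited 1 table of raw counts, with 12 library columns, 45706 Ensembl genes and 4 tallies of reads outside genes, which were left out of library sizes. Reads were mapped with STAR (version listed as 1.7.20) to GRCm38, per the submitters' processing notes, from a stranded polyA kit per the labels. The annotation release is not given in the sources used here. Multimapping reads, 9.25% to 19.5% of reads, are counted for no gene, which lowers genes with copies. Libraries held 19686870 to 33404302 gene counts, and intervals cover the spread between libraries as the fit estimates it.

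Groups came from the cell type and genotype labels. All 12 libraries entered 1 fit in edgeR 4.0.16 (R 4.3.3) with a term per group, filterByExpr (minimum count 10, minimum total 15), TMM factors and the two-sided quasi-likelihood F test, with Benjamini-Hochberg adjustment over 15922 genes and a threshold of 0.05. The SE was obtained from the log2 fold change and the F statistic (ratio of the first to the square root of the second), and the biological coefficient of variation was 0.155. CPM are TMM-scaled. The procedure was run on simulated counts with a common spread and few changed genes, so that run does not bear on the choice of scaling. Symbols and exon lengths came from the reference annotation, promoters from RefSeq, and 50-base words from annotated transcripts. The 36 genes, the pathway lists and the marker lists were chosen with earlier results of these data known. The text gives all 36 genes, and of each pathway list up to 3 called genes with the smallest p per comparison, not all of which are printed.

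Alternatives were RLE and upper-quartile factors, scaling to the 6 T cell marker genes (Lat, Cd5, Cd6 and the Cd3d, Cd3e and Cd3g chains), DESeq2 1.42.0, limma-voom (limma 3.58.1), no filter, a mean of at least 5 CPM, a 1.5-fold minimum, a replicate block, a fit restricted to the groups compared, leaving out single libraries, and the Trg libraries with Xist and Y-linked reads left out together. The rule of at least 100 CPM of Xist for the last was chosen after seeing the data. Figures were drawn with Python 3.11.15 and matplotlib 3.10.9.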

Additional observations from a re-analysis of the deposited data

Results flagged for a closer look

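For 11 of the 36 genes the effect of the knockout differed between regulatory and conventional T cells, by edgeR's quasi-likelihood test of the interaction with Benjamini-Hochberg adjustment over all genes tested, of which 21.3% passed, 8.86% positive and 12.4% negative. Values are the log2 effect in Trg minus that in con, with their SE. Among the synthesis genes it was 0.74 ± 0.13 (SE, BH-adjusted p = 0.00262) for Mvk, 0.69 ± 0.22 (SE, BH-adjusted p = 0.0454) for Sqle and 0.38 ± 0.11 (SE, BH-adjusted p = 0.0262) for Dhcr7. For the regulators it was 0.55 ± 0.09 (SE, BH-adjusted p = 0.00224) for Srebf2, 0.35 ± 0.06 (SE, BH-adjusted p = 0.00169) for Srebf1 and 0.31 ± 0.07 (SE, BH-adjusted p = 0.00837) for Scap. Npc2 differed by 0.48 ± 0.12 (SE, BH-adjusted p = 0.0150) and Fasn by 0.56 ± 0.10 (SE, BH-adjusted p = 0.00372). Of these 8, all fell in con, and in Trg Sqle and Srebf2 fell by less while the other 6 were not called. The difference was negative for Abca1 at -0.76 ± 0.18 (SE, BH-adjusted p = 0.0136), for Scd1 at -2.16 ± 0.50 (SE, BH-adjusted p = 0.0121) and for Scd2 at -0.66 ± 0.17 (SE, BH-adjusted p = 0.0175), all 3 of which rose in con and were not called in Trg.

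The Sqle difference was called in 9 of 22 other settings and was lost when any 1 of 9 libraries was left out, and that of Dhcr7 was called in 14 and lost without any 1 of 5, and without the pair of Trg libraries with at least 100 CPM of Xist and Y-linked reads. The other 9 held in 20 or 21 of 22. Scaling to T cell genes was the setting that ended 8 of these 9, and Scd1 held under it. The summed B cell markers were at 705% of WT in KO con and 104% in KO Trg, and the macrophage and monocyte markers at 631% and 130.4%. Neutrophil markers were at 3086% and 266%, and plasma cell markers at 203% and 52.3%. Their part in these differences was not tested.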

How the results depend on the processing

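Scaling to 6 T cell genes moved the median of all genes (log2) to 0.53 in both knockout comparisons, 0.71 between cell types in WT, 0.62 in KO and -0.04 for the difference of effects. Of the 36 genes, 1 was then lower in KO con, 12 were higher and 0 lower in KO Trg, 16 higher and 1 lower in WT Trg against con, 24 and 0 in KO, and 0 and 1 for the difference. Under it alone did called genes turn sign, 33 in all. In KO con these were Acat2 0.15, Hmgcs1 0.21, Fdft1 0.24, Lss 0.25, Cyp51 0.094, Tm7sf2 0.034, Msmo1 0.11, Nsdhl 0.30, Sc5d 0.29, Dhcr7 0.26, Srebf1 0.34, Insig1 0.073, Scap 0.22, Npc2 0.0097, Fasn 0.25 and Acaca 0.26, and in KO Trg Srebf2 0.30. Between cell types in WT they were Acat2 0.22, Hmgcs1 0.35, Sc5d 0.28, Dhcr7 0.32, Srebf1 0.33, Srebf2 0.41, Insig1 0.14, Scap 0.37, Npc1 0.41, Soat1 0.35 and Acaca 0.34, and in KO Tm7sf2 0.090, Sc5d 0.26, Soat1 0.0048, Abcg1 0.35 and Fasn 0.32. By construction this scaling holds the T cell genes level. The share of all genes called is not given for the settings of this section, so these counts are not read as results about the 36 genes. With a 1.5-fold minimum 2 genes fell in KO con, 0 rose or fell in KO Trg, 3 were higher and 3 lower in WT Trg, 2 and 1 in KO, and 0 and 1 for the difference. In KO Trg, where 2 genes fell and 1 rose, 1 fell with upper-quartile factors and with no filter, 0 with only the groups compared, and 3 rose with DESeq2. Without the 4 Trg libraries with Xist and Y-linked reads 0 rose and 0 fell, and without the 2 with at least 100 CPM of Xist 2 rose and 0 fell. A mean of at least 5 CPM gave 10 genes lower in KO Trg than KO con, DESeq2 gave 5 negative differences of effects, and leaving out the 4 libraries gave 1. Apart from the construction of the scaling and the smaller samples, the cause was not tested. Leaving out 1 library at a time gave 6 to 7 genes higher and 18 to 22 lower in KO con, 1 to 2 and 0 to 3 in KO Trg, 6 to 7 and 14 to 19 between cell types in WT, 7 to 9 and 5 to 8 in KO, and 6 to 11 and 3 to 4 for the difference. In KO Trg the lower count was 0 without some libraries and 3 without another, as given for Sqle and Srebf2.

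Libraries with the same replicate number did not resemble each other more than others did. Over 18 pairs with the same number the correlation of deviations ran from -0.73 to 0.37, and 5 were over 0.1, against 17 of 36 pairs with other numbers. Deviations from means of 3 libraries cannot show whether equal numbers share an animal or a day. With the replicate number as a block 6 genes rose and 21 fell in KO con, 1 and 0 in KO Trg, 6 and 16 in WT, 7 and 7 in KO, and 7 and 3 for the difference. Depth limits few of the genes: Scd1 had 16 reads in its lowest library and Fdps, the next, 50.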

Other observations

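Summed markers of dividing cells stood in another order over the groups than the summed synthesis genes, both on the TMM scale. The sum of 11 proliferation genes was 411 ± 19.9 (SD, n = 3) CPM in WT con, 508 ± 4.45 (SD, n = 3) CPM in KO con, 802 ± 79.3 (SD, n = 3) CPM in WT Trg and 882 ± 47.8 (SD, n = 3) CPM in KO Trg. The lowest KO con library was above the highest WT con library, and the Trg libraries were above both. The summed synthesis genes were highest in WT con and lowest in KO con. Of the 11 proliferation genes, 8 rose and 2 fell in KO con, where 23.3% and 25.4% of all genes tested did. The sum was not tested as such, nor was its relation to the synthesis genes. Markers of other cells also differed between these groups, and their part in the sum was not tested.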
